A study of Mus musculus with 5 samples.

Results

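A set of 10 genes of the Notch pathway were examined in open-chromatin maps of embryonic mouse limb ectoderm and forebrain. They are the Jagged ligands Jag1 and Jag2, the Delta-like ligands Dll1 and Dll3, the receptors Notch1, Notch2 and Notch3, and the transcriptional targets Hes1, Hes5 and Hey1. These 10 of 21883 protein-coding genes were taken from a list of pathway members. A peak was given to a gene when its summit, the point of highest signal, lay inside the gene or within 100 kb of it and no other protein-coding gene was nearer. By this rule the genes had 57 and 53 summits in forelimb ectoderm replicates 1 and 2, 35 and 66 in hindlimb ectoderm replicates 1 and 2, and 127 in forebrain. Peaks of the 5 libraries that shared at least 1 base were merged into regions, of which 148 of 231612 belonged to these genes.

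Notch signalling passes between touching cells. A Jagged or Delta-like ligand on one cell binds a Notch receptor on its neighbour, proteases release the receptor's intracellular part, and this part enters the nucleus and joins the DNA-binding protein RBPJ and a Mastermind coactivator to switch on genes of the Hes and Hey families. In the developing forebrain the pathway holds progenitors back from becoming neurons, through Hes1 and Hes5, while cells entering the neuronal path express Delta-like ligands. In developing epidermis it acts in the cells that leave the basal layer, and in the limb Jag2 of the apical ridge is needed for the separation of digits.

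The study used mouse embryos of the CD1 stock, and the labels name no mutation, transgene or treatment. Distal forelimb ectoderm and distal hindlimb ectoderm, both at stage E14.5, gave 2 libraries each, and forebrain at stage E13.5 gave 1. Trypsin was used to lift the ectoderm off the mesoderm and collagenase to loosen the forebrain, and effects of tissue, stage and enzyme cannot be told apart. No label ties a replicate to its own embryo or pool, so the spread between replicates may be technical. The peak lists held 82649 and 81232 summits in forelimb, 55391 and 86219 in hindlimb, with 151077 in forebrain, and the background implied by the peak statistics was 3.1 to 4.62 reads per position. Hindlimb replicate 1 had the shortest list, and a region without a peak is one where none was called, not one shown to be closed. No p-value is given: forebrain has 1 library, and an even division of the 4 ectoderm libraries can be made in 3 ways, which allows no two-sided p below 0.333. In tissue of mixed cells, fewer cells of a type and lower accessibility per cell cannot be told apart.

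The labelled tissues were checked against marker genes. Regions of 7 epidermis markers had a peak in each of the 4 ectoderm libraries but none in forebrain (called ectoderm-only) in 12.7% of 118 cases, and in forebrain and no ectoderm library (forebrain-only) in 22.0%. For 7 forebrain markers these shares were 1.26% and 49.1% of 159 regions. At gene starts, 4 to 6 of the 7 epidermis markers had a peak in the ectoderm libraries and 4 in forebrain, while 3 to 5 of the 7 forebrain markers had one in ectoderm and all 7 in forebrain. Krt5 had a peak in 3 ectoderm libraries and not in forebrain, Pax6 and Neurod2 had one in forebrain alone, Trp63 had one in forelimb replicate 2 alone, and Krt14 had none in any library. Of the markers of other cells that tissue could hold, limb mesenchyme had a start peak at 2 to 4 of 5 genes in the ectoderm libraries, endothelium at 1 or 2 of 4, blood at 2 of 3 and melanocytes at 2 of 4. Among these, Col1a2, Kdr, Spi1, Runx1, Mitf and Pmel had a start peak in each ectoderm library, and Cdh5, Pecam1, Ptprc, Sox10 and Dct had one in none of them. In forebrain the counts were 5 of 5 for limb mesenchyme, 3 of 4 for endothelium, 2 of 3 for blood and 3 of 4 for melanocytes. Of all protein-coding genes, 52.9% to 61.4% had a start peak in the ectoderm libraries and 66.0% in forebrain. Forebrain-only shares of regions were 41.4% for limb mesenchyme, 38.1% for endothelium, 30.7% for blood and 43.5% for melanocytes, so a high share was not limited to the forebrain markers. Ectoderm-only shares of these 4 lists were 0.0% to 4.84%, below that of the epidermis markers. Of all regions assigned to a protein-coding gene, 2.35% were ectoderm-only and 32.1% forebrain-only. The part of such cells in the results was not tested.

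At the gene starts, most members had a peak in both tissues, and Dll3 and Hes5 were called in forebrain alone. A start peak was a summit within 1 kb of an annotated start site. For Hes1 and Hey1, which had no start site in the table used, either end of the gene was taken instead, and this covers nearly all of Hes1. All 10 members had a start peak in forebrain, and 8, 7, 7 and 8 had one in forelimb replicates 1 and 2 and hindlimb replicates 1 and 2. Over all protein-coding genes the shares were 61.4%, 58.9%, 52.9% and 61.1% in the ectoderm libraries in the same order, and 66.0% in forebrain. A set of 7 members, Jag1, Jag2, Dll1, Notch1, Notch2, Hes1 and Hey1, had one in all 5 libraries, against 48.5% of genes. The Hey1 peak was counted here by position alone. Under the nearest-gene rule it went to the overlapping predicted gene LOC115489673, so it is not among the Hey1 regions or summits counted below. Dll3 and Hes5 had a forebrain start peak but no ectoderm one, as did 3.85% of genes. No member showed the reverse pattern, which 0.516% of genes had.

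Hes5 encodes a repressor of the basic helix-loop-helix class that is used as a readout of Notch activity in neural progenitors. Its forebrain start peak, chr4:154960447-154961096 (mm10), had a fold enrichment of 4.72 and stood at percentile 88.8 of the forebrain list by −log10 p. Dll3, a divergent ligand that acts within the cell that makes it rather than by activating neighbours, had its forebrain peak at chr7:28301661-28302556 with a fold of 7.6, at percentile 84.6. The promoters of these genes are shown because they are the members whose start separated the tissues. Each runs from 250 bases before to 50 after the start site in the direction of transcription (RefSeq, GRCm38.p6). Capitals mark TGGGAA, the core letters of the RBPJ site, read on either strand, where its other strand reads TTCCCA.
Hes5, chr4:154960673-154960972, plus strand: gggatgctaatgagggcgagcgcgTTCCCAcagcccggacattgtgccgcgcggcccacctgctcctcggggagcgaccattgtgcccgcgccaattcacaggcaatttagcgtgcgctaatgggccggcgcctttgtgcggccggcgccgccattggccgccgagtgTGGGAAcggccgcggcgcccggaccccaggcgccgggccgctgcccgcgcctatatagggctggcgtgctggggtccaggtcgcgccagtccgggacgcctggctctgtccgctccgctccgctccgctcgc
Dll3, chr7:28301736-28302035, minus strand: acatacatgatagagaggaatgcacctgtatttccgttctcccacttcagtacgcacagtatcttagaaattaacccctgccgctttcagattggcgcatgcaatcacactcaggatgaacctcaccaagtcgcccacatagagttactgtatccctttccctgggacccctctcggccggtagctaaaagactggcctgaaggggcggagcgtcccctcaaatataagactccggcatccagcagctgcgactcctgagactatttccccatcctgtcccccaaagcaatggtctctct
The Hes5 promoter holds the core on both strands, beginning at positions -226 and -82 relative to the start site, and the whole window lies inside the forebrain peak. Both matches also carry the longer form GTGGGAA. That form, which contains the core, was present in 6.07% of 21262 promoters of protein-coding genes, and 2 or more copies were present in 0.259%. The core itself was present in 24.5%. Dll3 has no match in its window, and neither have the promoters of the other 6 members in the table, Jag1, Jag2, Dll1 with its pair of start sites, Notch1, Notch2 and Notch3. The strongest forebrain summit at the Dll3 start lay 544 bases from the start site, outside that window, and the sequence there was not searched. CACGTG, a sequence bound by many helix-loop-helix factors and present in 7.84% of promoters, was found in no member promoter. Hes1 and Hey1 have no entry in that table. A match of letters is a description and does not show a bound site.

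Among the starts with a peak in every library, the rank of the peak within its own list varied by gene. Hey1, a repressor related to the Hes proteins, stood highest, at percentiles 95.5 and 95.6 in forelimb, 93.7 and 96.4 in hindlimb, with 98.7 in forebrain. Notch2 followed, at 91.0 and 88.1, 92.7 and 93.2, and 96.1. Jag1 stood at 84.5 and 79.2, 85.5 and 89.4, and 96.0. In all 5 libraries the order of these 3 genes was the same. Dll1 stood at 25.5 and 24.0 in forelimb, 49.3 and 65.6 in hindlimb, with 82.9 in forebrain, so its 4 ectoderm peaks lay in the weaker and middle parts of their lists. For Notch1 the values were 83.9, 83.5, 39.9, 75.0 and 77.8, each in its own list. Hes1 ranged from 68.4 to 90.7 over the ectoderm libraries and stood at 81.3 in forebrain. Jag2 ranged from 47.5 to 79.6 over ectoderm and stood at 59.9 in forebrain, with its strongest summit up to 984 bases from the start. Notch3, a receptor best known from the cells around small vessels, was called in forelimb replicate 1 (67.4), hindlimb replicate 2 (24.6) and forebrain (83.5) and not in the other 2 libraries.

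**Figure D1:**
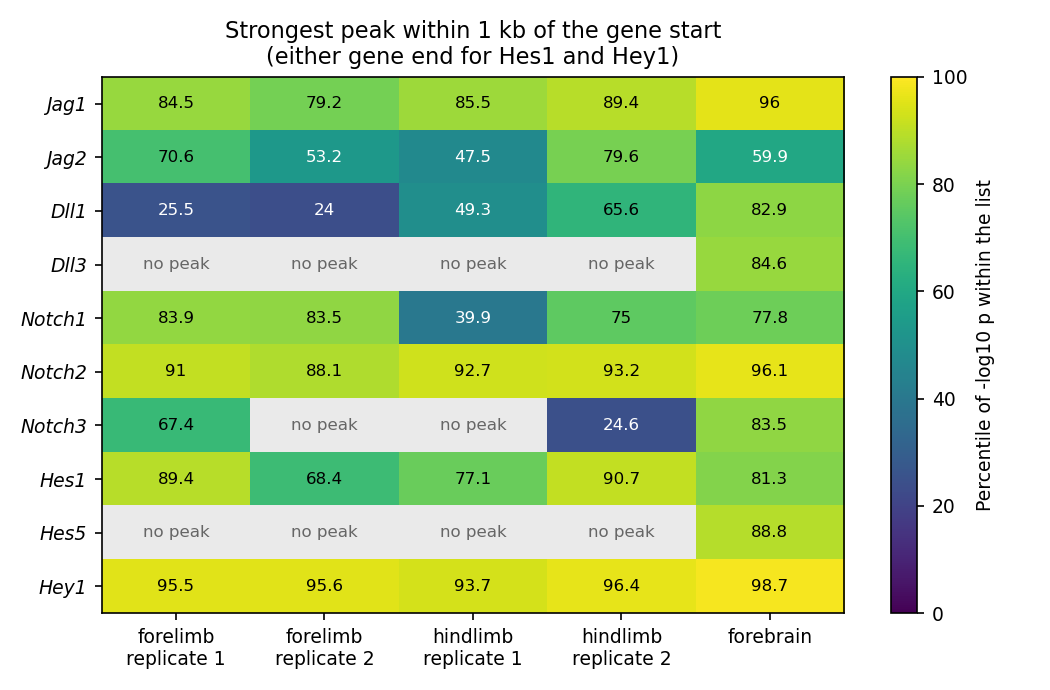
Strongest peak within 1 kb of each gene start (either end for Hes1 and Hey1), for 10 genes in rows and 5 libraries in columns. Colour and number give the percentile of −log10 p within that library's own list, and grey marks no called peak, as for Dll3 and Hes5 in all 4 ectoderm libraries.

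Across whole loci, most member regions were not shared by all libraries. Ectoderm-only regions numbered 5, or 3.38% (exact Clopper-Pearson 95% interval 1.11 to 7.71), beside 2.35% of the 182739 regions assigned to any protein-coding gene. Forebrain-only regions numbered 58, or 39.2% (31.3 to 47.5), beside 32.1%. Regions in all 5 libraries numbered 13, or 8.78% (4.76 to 14.6), beside 8.15%. Each of these intervals holds the background share, which for forebrain-only regions lies near the lower end. Regions that had ectoderm peaks, in 1 or more libraries, and no forebrain peak made up 34.5% (26.8 to 42.7), beside 46.9%, which lies above the interval. Most of this gap lay in regions called in 1 ectoderm library alone, 25.0% beside 36.6%. Those called in 2 or more ectoderm libraries and not in forebrain made up 9.46%, beside 10.3%. The intervals cover counting error only and treat regions of a locus as independent. Without hindlimb replicate 1, 22 regions in place of 13 were in all remaining libraries, which is 15.7% of member regions beside 12.4% of all regions. With every list reduced to the length of the shortest, 27 of 91 member regions (29.7%) were forebrain-only, beside 14.7% of all regions. The members' forebrain-only share was above that of all regions in the other settings too. It was 51.5% beside 41.0% at −log10 q of 5 or more, and 44.1% beside 31.9% within 20 kb. With 1 ectoderm library left out it was 42.9% to 46.3%, beside 35.8% to 37.8%. These settings reuse the same lists, and no interval was computed for them.

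**Figure D2:**
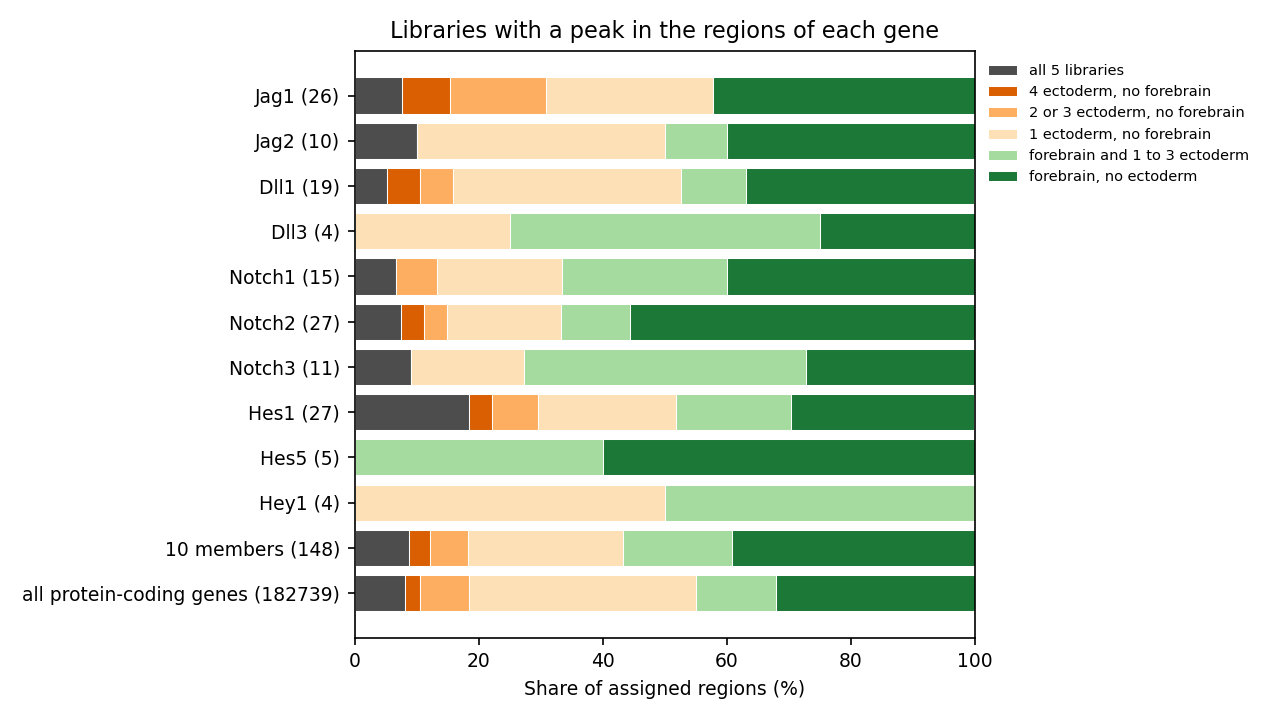
Share of each gene's regions (%) by the libraries that had a peak, with the number of regions in brackets, for the 10 genes, for them together and for all protein-coding genes. Jag1 has no region shared by forebrain and 1 to 3 ectoderm libraries, and Hes5 has no region outside the forebrain list.

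The distance limit of 100 kb passed close to some peaks. Just inside it lay Jag1 and Dll1 peaks at 99.3 and 99.0 kb, both in forelimb replicate 1, with folds of 4.64 and 3.9. Just outside lay peaks 108.0 kb from Dll1 and 108.0 kb from Jag1, both in forelimb replicate 2, with folds of 3.8 and 2.71.

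The Jagged and Delta-like ligands were compared library by library. Jag1 and Jag2 together had 14 and 14 summits in forelimb, 10 and 22 in hindlimb, with 29 in forebrain. Dll1 and Dll3 had 11 and 9, 6 and 8, and 17. The Jagged pair thus had more summits than the Delta-like pair in every library, over 180 kb of assigned sequence against 132 kb. Per 100 kb, the Jagged pair had 7.78 and 7.78 in forelimb, 5.56 and 12.2 in hindlimb, with 16.1 in forebrain. The Delta-like pair had 8.33 and 6.82, 4.55 and 6.06, and 12.9. On that scale the order turned round in forelimb replicate 1, so the difference in number did not hold per length in every library. All protein-coding genes had 3.7 and 3.56, 2.46 and 3.89, and 6.52. Both pairs were denser than this in each library.

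**Figure D3:**
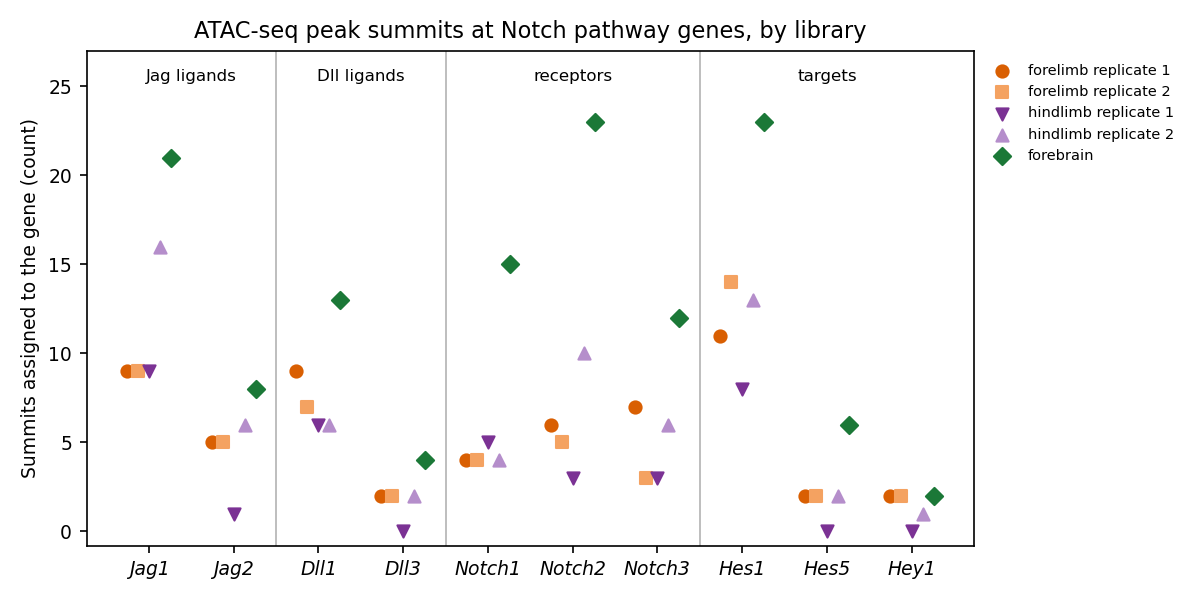
Number of peak summits assigned to each gene (vertical axis) in each of the 5 libraries, with the genes grouped by role. Forebrain has the highest count at every gene but Hey1, where both forelimb libraries equal it at 2, and hindlimb replicate 1 has none at Dll3, Hes5 and Hey1. The lists differ in length, from 55391 summits in hindlimb replicate 1 to 151077 in forebrain.

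The regions of both ligand pairs were then sorted by the libraries that had a peak. Of 36 Jagged regions, 17 (47.2%, interval 30.4 to 64.5) had an ectoderm peak and no forebrain peak and 15 (41.7%) were forebrain-only. Of 23 Delta-like regions, 10 (43.5%, interval 23.2 to 65.5) and 8 (34.8%) were of these kinds. Over all protein-coding genes these shares were 46.9% and 32.1%. The intervals of the ligand pairs overlap widely and both hold 46.9%, so neither pair was shown to differ from the other or from all regions. Regions called in at least 2 ectoderm libraries and not in forebrain numbered 6 for the Jagged pair (16.7%), all at Jag1, and 2 for the Delta-like pair (8.7%), both at Dll1, beside 10.3% of all regions. With lists of equal length the forebrain-only counts were 6 and 5. The share over all regions fell from 32.1% to 14.7% and that of the 10 members together from 39.2% to 29.7%. The shares of the ligand pairs in that setting are not given.

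Jag1 encodes a ligand used in many epithelia and in the ear, heart and liver. It had 9 summits in each forelimb library, 9 and 16 in hindlimb, with 21 in forebrain. Its 26 regions fell into 2 called in all 5 libraries, 13 with ectoderm peaks and no forebrain peak, and 11 forebrain-only. No Jag1 region was shared by forebrain and only some ectoderm libraries. The 2 shared regions were the start and an intragenic region, chr2:137114157-137115059. Regions of both tissues lay along the gene and through the 100 kb beside its start, which has no other protein-coding gene. In that flank 4 ectoderm regions in a row, from 65.0 to 80.7 kb, had no forebrain region between them. The end regions of this row were each called in a single library. At 65.0 kb this was hindlimb replicate 2, and at 80.7 kb forelimb replicate 2, at percentile 16.0 of its list.

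Jag1 held 2 of the 5 ectoderm-only regions. Inside the gene, chr2:137098317-137098838 had folds of 3.42 and 4.77 in forelimb and 2.84 and 5.48 in hindlimb, each in its own list. The nearest forebrain peak was 546 bases away. The other, chr2:137189315-137190124, lay 73.2 kb from the gene, outside any annotated gene, with folds of 4.1 and 5.24 in forelimb and 4.4 and 7.23 in hindlimb. The nearest forebrain peak was 14283 bases away, the farthest for any of the 5 regions. A further region 74.4 kb from the gene, chr2:137190775-137191200, was called in 3 ectoderm libraries, and without hindlimb replicate 1 it joined the ectoderm-only regions. The strongest forebrain-only region of Jag1 was chr2:137153063-137153730, 36.7 kb from the gene, with a fold of 8.98 at percentile 85.5.

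Jag2, the other Jagged ligand, had 5 summits in each forelimb library, 1 and 6 in hindlimb, with 8 in forebrain. Of its 10 regions, 4 were forebrain-only and 4 were called in a single ectoderm library. The region called in all 5 libraries, chr12:112929340-112930325, lay at the start. Beside it, chr12:112928295-112929304 was called in both forelimb libraries, hindlimb replicate 2 and forebrain. No Jag2 region was called in 2 or more ectoderm libraries without forebrain. Its strongest forebrain-only region was chr12:112897546-112898296, 9.71 kb from the gene, with a fold of 5.49 at percentile 65.8.

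Dll1 encodes the main activating Delta-like ligand of neural progenitor zones. It had 9 and 7 summits in forelimb, 6 and 6 in hindlimb, with 13 in forebrain. Per 10000 summits of the list these were 1.09 and 0.862, 1.08 and 0.696, and 0.86. On that scale forebrain was above hindlimb replicate 2 and not above the other ectoderm libraries. Its 19 regions included 7 forebrain-only regions and 1 in all 5 libraries, at the start. Its 1 ectoderm-only region, chr17:15325914-15326741, lay 41.2 kb from the gene outside any annotated gene. Folds there were 8.76 and 9.94 in forelimb and 8.37 and 14.0 in hindlimb, at percentiles 93.2, 95.7, 96.3 and 98.1 of the 4 lists. In both hindlimb libraries and in forelimb replicate 2 it had the highest fold and percentile of the 5 ectoderm-only regions. Forelimb replicate 1 placed the Notch2 region described next above it, at a fold of 10.2 and percentile 94.8. The nearest forebrain peak was 2049 bases away, at chr17:15323067-15323864, a forebrain-only region with a fold of 10.2 at percentile 89.0. Farther toward the gene, chr17:15342985-15343601 was forebrain-only with a fold of 12.8 at percentile 90.2, the highest percentile of the 58 forebrain-only regions. The flank of Dll1 thus held ectoderm-only and forebrain-only regions that ranked high in their own lists at separate places.

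Dll3 had 2 summits in each forelimb library, 0 and 2 in hindlimb, with 4 in forebrain. Neighbouring genes left it 12 kb of assigned sequence and 4 regions. Apart from its forebrain-only start, the region chr7:28294466-28294951 inside the gene was called in both forelimb libraries, hindlimb replicate 2 and forebrain. The Dll3 locus was therefore not without ectoderm peaks, though its start had none called.

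**Figure D4:**
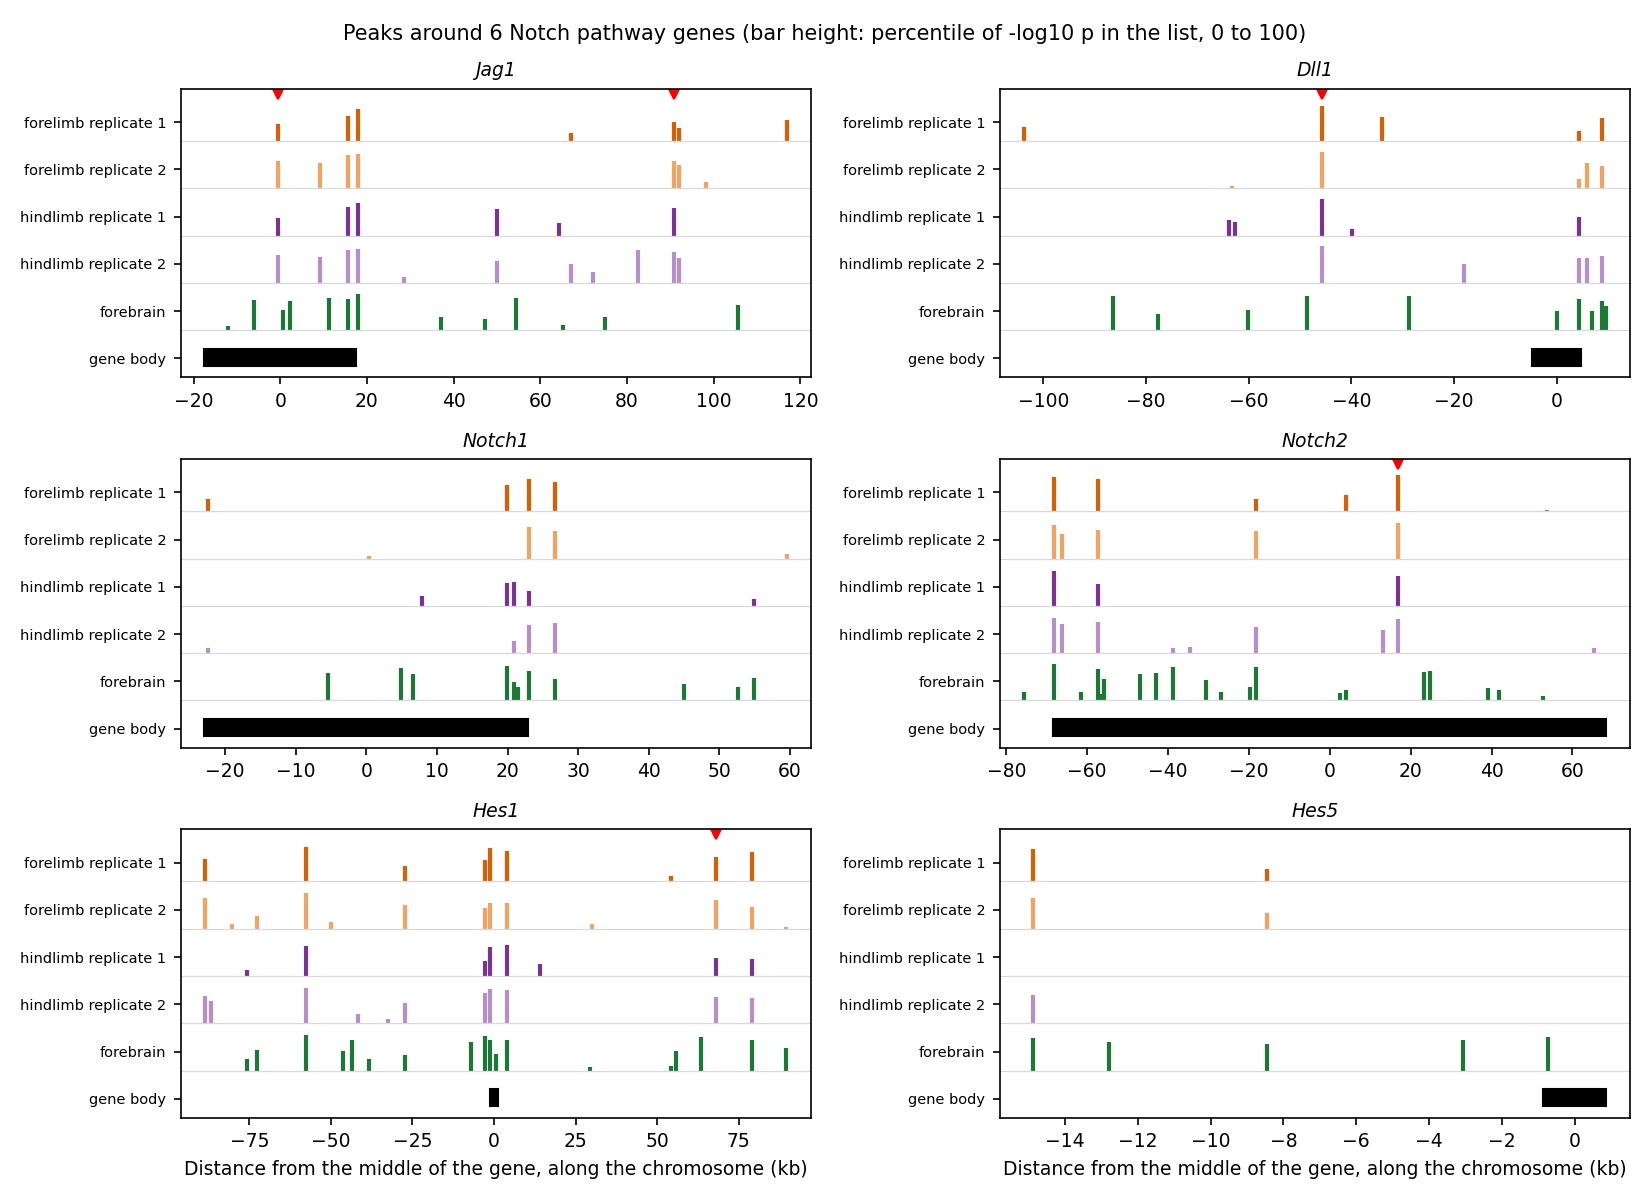
Peaks of 5 libraries around Jag1, Dll1, Notch1, Notch2, Hes1 and Hes5, by distance from the middle of the gene (kb). Bar height is the percentile of −log10 p within that library's list, black bars are gene bodies, and red triangles mark the 5 regions called in the 4 ectoderm libraries without forebrain.

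Among receptor regions the share without a forebrain peak was lower than among all genes' regions. Of 53 receptor regions, 13 (24.5%, interval 13.8 to 38.3) had an ectoderm peak and no forebrain peak, beside 46.9% of all regions, which lies above the interval. Of these 13, 10 were called in 1 ectoderm library alone (18.9% of receptor regions, beside 36.6% of all regions). The other 3 were called in 2 or more (5.66%, beside 10.3%). A further 24 (45.3%, interval 31.6 to 59.6) were forebrain-only, and that interval holds the 32.1% of all regions. The interval of the 13 overlaps that of each ligand pair, so a difference between receptors and ligands was not shown. With lists of equal length, 10 receptor regions were forebrain-only. The share over all regions fell from 32.1% to 14.7% and that of the 10 members together from 39.2% to 29.7%. The share of receptors alone in that setting is not given. Per 100 kb the receptors had 5.01 and 3.54 summits in forelimb, 3.24 and 5.9 in hindlimb, with 14.7 in forebrain. In forelimb replicate 2 this was below the 3.56 of all protein-coding genes, and in the other libraries it was above.

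Notch2 had the most forebrain-only regions of any member, 15 of 27, beside 32.1% of all regions. All but 1 of them lay inside its 137.0 kb gene body, the longest of the members. Notch2 and Hes1 also had the most regions of any class, 27 each. At −log10 q of 5 or more Notch2 had 8 forebrain-only regions, as had Jag1, Dll1 and Hes1, and 41.0% of all regions were forebrain-only. With lists of equal length it had 5, as had Jag1, and the share over all regions was 14.7%. The number of Notch2 regions in these settings is not given, so its shares there cannot be compared. These counts were not scaled to the length of the gene. It had 6 and 5 summits in forelimb, 3 and 10 in hindlimb, with 23 in forebrain. Its 1 ectoderm-only region, chr3:98098626-98099078, lay inside the gene 85.3 kb from the start. Folds were 10.2 and 8.9 in forelimb and 4.06 and 8.41 in hindlimb, at percentiles 94.8, 94.1, 79.2 and 90.8 of their own lists. The nearest forebrain peak was 5814 bases away. Another intragenic region, chr3:98024107-98024905, 11.1 kb from the start and overlapping the non-coding gene Gm40103, was called in all 5 libraries with folds of 6.97, 4.88, 3.27, 6.43 and 6.39 in forelimb, hindlimb and forebrain. The strongest Notch2 forebrain-only region was chr3:98106618-98107020, with a fold of 5.06 at percentile 76.5.

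Notch1 is the receptor with the best-known roles in both neural progenitors and epidermis. It had 4 summits in each forelimb library, 5 and 4 in hindlimb, with 15 in forebrain. Of its 15 regions, 6 were forebrain-only and none was ectoderm-only. Its strongest forebrain-only region, chr2:26485370-26486150, lay inside the gene with a fold of 6.11 at percentile 85.2. A region 3.85 kb beyond the start, chr2:26507341-26507857, was called in both forelimb libraries, hindlimb replicate 2 and forebrain. Nearer the start, chr2:26500445-26501172 had the highest-ranking forebrain peak of the locus, with a fold of 6.94 at percentile 92.1, and was also called in forelimb replicate 1 and hindlimb replicate 1. A region near the far end of the gene, chr2:26458324-26458607, was called in forelimb replicate 1 and hindlimb replicate 2 and not in forebrain. Forebrain-only regions lay both inside the gene and up to 29.8 kb beyond its start.

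Notch3 had 7 and 3 summits in forelimb, 3 and 6 in hindlimb, with 12 in forebrain. Of its 11 regions, 5 were shared by forebrain and 1 to 3 ectoderm libraries, and 3 were forebrain-only. Its region in all 5 libraries, chr17:32161947-32162841, lay inside the gene 4.51 kb from the start, with folds of 4.84 and 4.89 in forelimb, 3.89 and 3.95 in hindlimb, with 3.85 in forebrain. Its strongest forebrain-only region was chr17:32113410-32113954, in the non-coding gene Gm38585, with a fold of 5.42 at percentile 73.9. Without hindlimb replicate 1, Notch3 had 3 regions in all remaining libraries in place of 1.

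The 3 targets together had 36 regions, of which 11 (30.6%, interval 16.3 to 48.1) had an ectoderm peak and no forebrain peak and 11 (30.6%) were forebrain-only. Over all regions these shares were 46.9% and 32.1%, and the interval holds both. With lists of equal length 6 were forebrain-only. The share over all regions then fell to 14.7% and that of the 10 members together was 29.7%, while that of the targets alone is not given. Summits per 100 kb were 5.56 and 6.67 in forelimb, 2.96 and 5.93 in hindlimb, with 11.5 in forebrain.

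Hes1, the target shared by most tissues, had 11 and 14 summits in forelimb, 8 and 13 in hindlimb, with 23 in forebrain. It had 5 of the 13 regions called in all 5 libraries, more than any other member. The gene lies in a stretch poor in coding genes, with 402.0 kb to Opa1 on one side and 189.0 kb to Cpn2 on the other, so it took 197 kb of assigned sequence. One of these regions was 56.3 kb away in the non-coding gene 4632428C04Rik, chr16:30008434-30009372. It had folds of 8.36 and 9.86 in forelimb, 4.0 and 10.3 in hindlimb, with 11.7 in forebrain. Others lay at the gene, chr16:30065044-30065458, and 77.8 kb away on the other side, chr16:30145107-30145953. The Hes1 ectoderm-only region, chr16:30134203-30134860, lay 66.8 kb from the gene. Folds were 4.49 and 5.5 in forelimb and 2.99 and 4.62 in hindlimb, and the −log10 q in hindlimb replicate 1 was 3.92. It was no longer ectoderm-only at a −log10 q of 5 or more. Without hindlimb replicate 1, chr16:29977770-29978178 was also ectoderm-only, and the targets then had 2 such regions. The strongest forebrain-only region, chr16:30129283-30130451, had a fold of 8.52 at percentile 89.5 and lay 61.9 kb from the gene, on the same side as the ectoderm-only region.

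Hes5 had 2 summits in each forelimb library, 0 and 2 in hindlimb, with 6 in forebrain. All 5 of its regions had a forebrain peak. Besides the start, chr4:154948295-154949102 and chr4:154958261-154958614 were forebrain-only, with folds of 3.97 and 4.26. The ectoderm peaks lay away from the gene, and the stronger was 14.1 kb from it at chr4:154946355-154946902. There the folds were 5.93 and 5.88 in forelimb, 5.07 in hindlimb replicate 2 and 5.69 in forebrain, with no peak in hindlimb replicate 1.

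Hey1 had 2 summits in each forelimb library, 0 and 1 in hindlimb, with 2 in forebrain. These counts depend on the annotation. The predicted gene LOC115489673, chr3:8666924-8669688, overlaps an end of Hey1, and the peaks at that end were given to it. When only genes with a curated RefSeq transcript competed for summits, an alternative chosen after the data were seen, Hey1 had 12 regions in place of 4. They then included the end peak, chr3:8666681-8668097, with folds of 8.6 and 7.63 in forelimb, 6.36 and 10.2 in hindlimb, with 10.3 in forebrain. They also included an ectoderm-only region 23.0 kb away, chr3:8689969-8690446, with folds of 7.49 and 4.53 in forelimb and 3.18 and 6.23 in hindlimb. A region 17.9 kb away, chr3:8684779-8685671, had a fold of 14.0 in forebrain and 3.25 in hindlimb replicate 1 and was not called elsewhere. The targets then had 2 ectoderm-only regions.

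**Figure D5:**
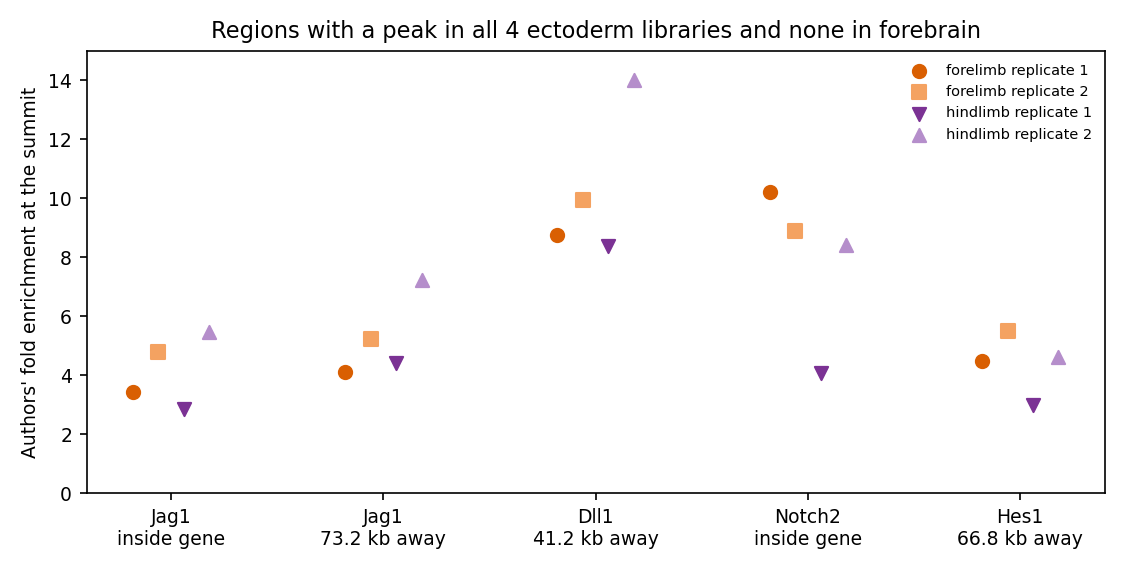
Fold enrichment at the summit, as the authors' lists give it, for the 5 member regions called in the 4 ectoderm libraries without forebrain. Each point is 1 library's strongest peak in the region, and the Dll1 and Notch2 regions reach 14.0 and 10.2.

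Forelimb and hindlimb ectoderm were compared next, to ask whether the pathway's loci differ between the limbs. Forelimb-only regions, with a peak in the 2 forelimb libraries and none in hindlimb, numbered 2 (1.35%, beside 1.99% of all regions). They were chr4:154952659-154953416, 7.79 kb from Hes5, with folds of 3.0 and 3.34, and chr3:8664546-8664853 in Hey1, with folds of 3.46 and 2.83. Hindlimb-only regions, the reverse, also numbered 2 (1.35%, beside 0.673%). They were chr2:137148946-137149217, 32.6 kb from Jag1, with folds of 3.94 and 4.88, and chr2:26501685-26501981 in Notch1, with folds of 2.9 and 2.48. Except for the Jag1 region, these also had a forebrain peak. With 1 library left out a limb can rest on a single library, and the counts were higher: forelimb-only regions numbered 13 without forelimb replicate 1, without forelimb replicate 2 or without hindlimb replicate 2, and hindlimb-only regions 19 and 12 without hindlimb replicates 1 and 2. The shares over all regions were higher too. Forelimb-only regions made up 9.15%, 9.35% and 9.56% of member regions in these 3 settings, beside 13.4%, 13.8% and 8.41% of all regions. Hindlimb-only regions made up 13.6% and 8.82%, beside 14.2% and 11.1%.

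The other genes of the pathway were described from a list of 43 covering receptors and ligands outside the 10, glycosyltransferases, proteases, the nuclear complex, further targets, and genes of endocytosis and turnover. They had 478 regions, of which 10 (2.09%) were ectoderm-only and 150 (31.4%) forebrain-only, beside 2.35% and 32.1% of all regions. Start peaks were present at 37 and 35 of the 43 in forelimb, 32 and 32 in hindlimb, with 40 in forebrain. Over all protein-coding genes the shares with one were 61.4% and 58.9%, 52.9% and 61.1%, and 66.0%. The median gene of this list had 4 forebrain summits, the median of the 10 members was 12.5 and that of all protein-coding genes was 3.

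Ectoderm-only regions in that list were most numerous at Maml2 and Maml3, which encode Mastermind coactivators and had the most regions of the 43 genes. Over all regions assigned to a protein-coding gene, 2.35% were ectoderm-only and 32.1% forebrain-only. Maml2 had 3 ectoderm-only and 19 forebrain-only of 58 regions, and Maml3 had 2 and 30 of 76. Fbxw7, which marks the active receptor for destruction, had 1 and 7 of 28. Psen2, a catalytic subunit of gamma-secretase, had 1 and 2 of 15. The Fringe glycosyltransferase Mfng, which alters the response of receptors to ligands, had 1 and 4 of 8, and Nrarp, a feedback inhibitor, had 1 and 1 of 8. Among genes with many forebrain-only regions, the Delta-like relative Dlk1 had 11 of 28 and Rbpj, the DNA-binding partner of the receptors, had 8 of 22, each with no ectoderm-only region. These counts were not scaled to the length of the locus.

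The 3 of the 43 genes whose start had a forebrain peak but no ectoderm peak were Notch4, Dlk1 and Dtx1, named after their values were seen. Of all protein-coding genes, 3.85% had this pattern. Notch4 is a receptor of endothelial cells. Of the 4 endothelial markers, Cdh5 had a start peak in forebrain alone, Kdr in all 5 libraries, Tek in 3 ectoderm libraries and forebrain, and Pecam1 in none. Dll4, an endothelial ligand, had a start peak in forelimb replicate 2 and forebrain. The part of endothelial cells in these peaks was not tested. The proteases Adam10 and Adam17, which make the first cut in the receptor, had a start peak in each of the 5 libraries.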

How the data were processed

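The 5 libraries are ATAC-seq, an assay where a transposase cuts accessible DNA. Per the submitters' processing notes, MACS2 2.1.1.20160309, Bowtie2 2.3.5, cutadapt 1.16, bedtools and Picard were used with the mm10 build. A shift of reads for the transposase is neither stated nor denied in those notes. Each library has its own deposited list, and none is of pooled samples. Each deposited row holds a summit, a fold enrichment over background (a linear ratio), −log10 p, −log10 q and an integer score, all as the authors' caller gave them. A row is a summit, and rows with the same interval are 1 peak. The score was not analysed beyond a check of its range. Read totals are not in the lists, so depth is known only as the background solved from fold and −log10 p. Fold and rank were used within a list and not compared as levels between lists.

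Summits were assigned to protein-coding genes of RefSeq GRCm38.p6, the assembly of the mm10 coordinates, with a limit of 100 kb. A region belonged to a gene when any of its summits did. Start sites came from the RefSeq promoter table, and 4392 genes without an entry were taken by either end. Shares have exact Clopper-Pearson 95% intervals. Computation used Python 3.11.15, pandas 2.3.3, numpy 2.4.6 and scipy 1.17.1, and the assignment and classes were tested on simulated data. The members and gene lists were chosen with earlier results of these data known. Named by rule were all members, every ectoderm-only, forelimb-only or hindlimb-only region, the strongest forebrain-only region of each member, and the 6 other pathway genes with most ectoderm-only and with most forebrain-only regions. A gene that this rule names is not reported here. Other regions were chosen after their values were seen. Alternatives changed the −log10 q threshold, the list length, the distance, the way regions were built, the libraries and the genes that competed for summits.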

Additional observations from a re-analysis of the deposited data

How the results depend on the processing

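Of 13 counts of regions, those within 1.5 times the reported value numbered 7 with peaks of −log10 q of 5 or more, 7 with lists of equal length, 6 with genes within 20 kb, 12 with regions built from windows around summits, and 12 with curated genes only, an alternative chosen after seeing the data. At −log10 q of 5 or more, the members had 97 regions in place of 148. Of these, 3 were ectoderm-only in place of 5 (3.09%, beside 2.95% of all regions). Regions in all libraries numbered 7 in place of 13 (7.22%, beside 11.9%). There were 1 forelimb-only and 1 hindlimb-only region in place of 2 each (1.03% each, beside 2.12% and 0.417%). Ectoderm-only counts were 1 for the Jagged pair and 0 for the targets. With lists of equal length, forebrain-only regions numbered 27 in place of 58 (29.7% of 91, beside 14.7% of all regions). They numbered 6 for the Jagged pair, 5 for the Delta-like pair, 10 for receptors and 6 for targets. In that setting 1 region was forelimb-only (1.1%, beside 2.74%). Within 20 kb, ectoderm-only regions numbered 2 of 93 (2.15%, beside 2.27% of all regions), with 1 for the Jagged pair and 0 each for the Delta-like pair and the targets. Forebrain-only regions there numbered 4 for the Delta-like pair and 5 for targets, and made up 31.9% of all regions. In that setting 1 member region was hindlimb-only (1.08%, beside 0.659%). Summit windows gave the targets 17 forebrain-only regions in place of 11. They also gave more regions, for the members and for all genes, and the forebrain-only share of all regions rose above 32.1%. Curated genes gave the targets 2 ectoderm-only regions in place of 1, beside 2.35% of all regions. The number of target regions in these settings is not given, so these counts do not show a change in share. Each alternative but the summit windows and the curated genes uses fewer peaks; beyond that the cause was not tested.

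Leaving out 1 ectoderm library at a time gave 5 to 7 ectoderm-only, 60 to 63 forebrain-only and 13 to 22 regions in all libraries. As shares of member regions these were 3.52% to 5.0%, 42.9% to 46.3% and 9.15% to 15.7%. Over all regions the shares were 2.72% to 5.18%, 35.8% to 37.8% and 9.09% to 12.4%. Forelimb-only regions ranged from 2 to 13, hindlimb-only regions from 2 to 19, and ectoderm-only regions of the targets from 1 to 2. The highest value for regions in all libraries, for hindlimb-only regions and for the targets came without hindlimb replicate 1, the library with the shortest list. The single forebrain library could not be left out. No paired analysis was possible because these counts come from no test.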

Other observations

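Regions called in 1 ectoderm library and nowhere else numbered 37 of the 148 (25.0%, beside 36.6% of all regions), and their best percentile had a median of 22.4. The corresponding medians were 81.2 for ectoderm-only regions, 52.8 for forebrain-only regions and 86.8 for regions in all 5 libraries. The best percentile is the highest over the libraries with a peak. A class called in more libraries can stand higher for that reason alone, so these medians do not compare peak strength. A single one of the 37 stood above percentile 75 of its list. It was chr2:137181206-137181772, 65.0 kb from Jag1, called in hindlimb replicate 2 with a fold of 10.8 and a −log10 q of 40.5, at percentile 87.7. The other hindlimb library and both forelimb libraries had no peak there.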
